A study of Mus musculus with 8 samples.

Results

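Translation elongation factors carry aminoacyl-tRNA to the ribosome and move the ribosome along the mRNA. The 6 mouse genes described here were Eef1a1, Eef1a2, Eef1b2, Eef1d, Eef1g and Eef2, taken by symbol from the 24421 genes of hippocampal RNA-seq count tables. All 6 passed the filter on low counts, which left 15999 genes for testing. The set was chosen by measured values: it was proposed for the share of counts that Eef1a1 takes in these libraries. Every Eef1a1 value below is therefore a description with no p, and tests are given for the other 5 genes only.

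The labels describe wildtype male C57BL/6J mice whose mothers received intraperitoneal injections for 5 days from 14.5 days post coitum. Dams of the IUGR (intrauterine growth retardation) offspring received dexamethasone, a synthetic glucocorticoid, at 1 mg/kg per day. Dams of the NS (normal saline) offspring received the same volume of saline. Hippocampi were taken at postnatal day 3 (D3) or at postnatal week 8, so both ages carry the same prenatal injections. Each of the 4 groups had 2 libraries (n = 2). The labels do not say whether libraries came from separate animals or litters, so a p-value here reflects the spread of these libraries alone and that spread may be technical.

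The protein eEF1A, in its GTP form, delivers aminoacyl-tRNA to the ribosomal A site. Eef1a1 encodes the form made in nearly all cells, and Eef1a2 encodes a close paralog that takes over in mature neurons and in skeletal and cardiac muscle after birth. The exchange factor eEF1B recharges eEF1A with GTP: Eef1b2 and Eef1d encode its catalytic subunits and Eef1g a scaffold subunit. Eef2 encodes the GTPase that translocates the ribosome by one codon and is inhibited by the kinase Eef2k. The mRNAs of Eef1a1, Eef1b2, Eef1d, Eef1g and Eef2, like those of ribosomal proteins, belong to the terminal oligopyrimidine class, whose translation responds to mTOR signalling.

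Because Eef1a1 and Eef1a2 encode near-identical proteins, how well reads can tell them apart bears on every value below. In the GENCODE M21 annotation of GRCm38 (mm10), Eef1a1 lies on chr9:78478449-78489151 on the minus strand, with 8 exons and 1386 coding bases in the transcript with the longest coding sequence. Eef1a2 lies on chr2:181147653-181157014, also on the minus strand, with 8 exons and 1389 coding bases. The coding sequences were identical at 1110 of 1389 aligned positions (79.9%). Their longest identical run was 23 bases, and no 100-base window was shared by the transcripts. The 60 coding bases that differ most (coding bases 643 to 702 of both, in exon 5) are shown first, with the 22 differing bases in capitals. They lie at chr9:78479694-78479753 and chr2:181150989-181151048 on the minus strand.
Eef1a1, most different: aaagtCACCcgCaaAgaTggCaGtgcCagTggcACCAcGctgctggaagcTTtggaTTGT
Eef1a2, most different: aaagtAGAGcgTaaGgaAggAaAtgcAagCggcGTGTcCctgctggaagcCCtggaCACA
The 60 coding bases that are most alike (coding bases 73 to 132, in exon 2) follow, with the 5 differing bases in capitals. They lie at chr9:78480523-78480582 and chr2:181155275-181155334 on the minus strand.
Eef1a1, most alike: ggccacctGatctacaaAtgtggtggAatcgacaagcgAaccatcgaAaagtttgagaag
Eef1a2, most alike: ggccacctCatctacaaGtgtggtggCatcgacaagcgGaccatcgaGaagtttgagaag
Thus even the closest stretch of that length held differences between the paralogs.

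Processed pseudogenes were a nearer match for some members. Of the 100-base windows of the Eef1a1 transcript, 26.7% also occurred in transcripts of 10 other annotated genes, 9 of them pseudogenes. For Eef1g (chr19:8967041-8978479, plus strand) the share was 49.4%, from 4 pseudogenes. None of these copies had an entry in the count tables. The share was 0.0% for Eef1a2, 1.2% for Eef1b2 (chr1:63176825-63180486, plus strand), 1.4% for Eef1d (chr15:75894205-75909556, minus strand) and 0.1% for Eef2 (chr10:81176631-81182498, plus strand). How reads with several matches were counted is not given in the sources used here, so the levels of Eef1a1 and Eef1g are uncertain to that extent. In the annotation Eef1b2 overlaps Ndufs1 and small RNA genes, and Eef1d overlaps Naprt. Eef2 holds the small nucleolar RNA gene Snord37. Strandedness is not given either, so reads of overlapping genes may not have been separated.

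Total counts ranged from 13030277 to 18993050 per library. All 12 hippocampal neuron markers (Prox1, Zbtb20, Neurod6 and others) were detected in all 8 libraries, with summed levels of 676 to 1442 CPM (the raw count scaled to the library total). Both D3 replicate 2 libraries went against their male label: they held 4998 and 5130 counts of Xist, the X-inactivation RNA, and 34 and 74 counts over 4 Y-linked genes. The D3 replicate 1 libraries held 4 and 81 counts of Xist and 3783 and 5364 Y-linked counts. Replicates differed far more at week 8 than at D3 (a chi-square of replicate counts per degree of freedom of 249 to 318, against 16.0 to 18.8). The difference was shared, because week 8 replicates with the same number stood alike in both treatments. The members' age changes are given with and without these libraries.

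All 6 genes were expressed in every library, and their order per length was the same in the 4 D3 libraries. Levels between genes were compared as CPM per kilobase (kb) of the deposited gene length. At D3 the order was Eef1a1 first, at 4182 to 5443 CPM per kb, then Eef2 at 544 to 580, Eef1g at 363 to 386, Eef1b2 at 242 to 260, Eef1a2 at 48.9 to 66.1 and Eef1d at 34.9 to 36.4. The ranges of neighbours in this order did not overlap. The order holds for the deposited lengths only, which need not be those of the expressed transcripts. For Eef1b2 that length was 1933 bases, with 675 coding bases. At week 8 Eef1a1 stayed first and Eef1d last in all 4 libraries, while Eef1a2 moved up. It stood above Eef1b2 in both replicate 1 libraries (148 and 172 CPM per kb) and above Eef1g and Eef2 as well in both replicate 2 libraries (498 and 403). Over the 4 week 8 libraries, the range of Eef1a2 overlapped those of Eef2 (317 to 419 CPM per kb) and Eef1g (139 to 244), while Eef1b2 (54.3 to 120) and Eef1d (19.6 to 32.9) stayed below.

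**Figure D1:**
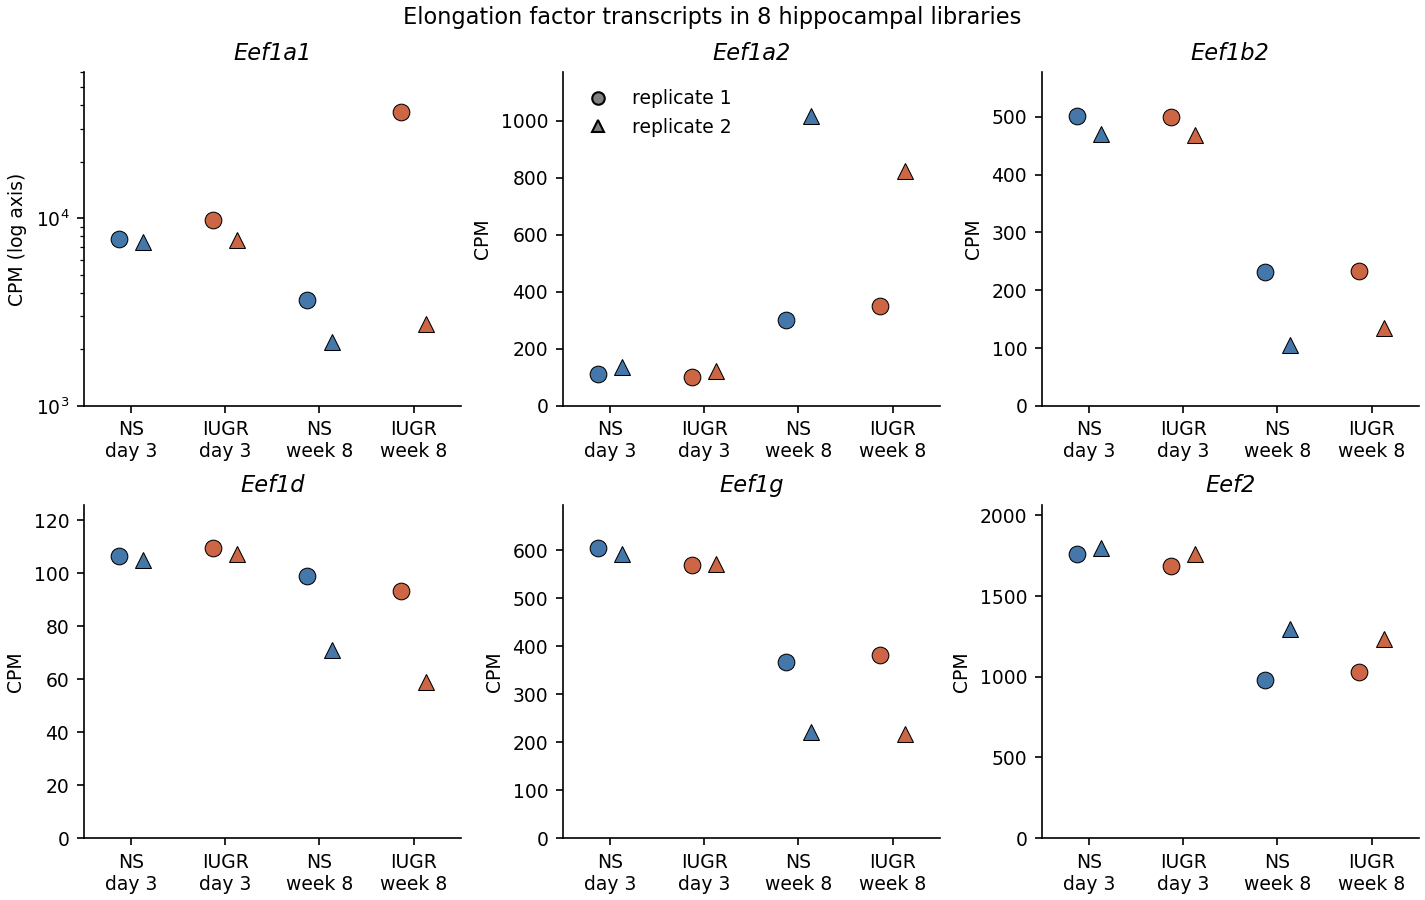
Level of each elongation factor gene in CPM (y axis, logarithmic for Eef1a1 and linear from 0 for the others) in each library of the 4 groups (x axis; NS in blue, IUGR in orange). Circles are replicate 1 and triangles replicate 2; Eef1a2 is higher and Eef1b2, Eef1d, Eef1g and Eef2 are lower in all 4 week 8 libraries, and a single Eef1a1 point, IUGR week 8 replicate 1, stands at 36960 CPM.

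Eef1a1, the general aminoacyl-tRNA carrier, was among the most counted genes of the tissue. At D3 it had 7778 and 7482 CPM in the NS libraries and 9738 and 7662 CPM in the IUGR libraries, with replicate 1 first here and below. At week 8 it had 3662 and 2182 CPM in the NS libraries and 36960 and 2721 CPM in the IUGR libraries. In 3 of the 4 week 8 libraries the level was below every D3 library, and in the remaining one, IUGR replicate 1, it was above all others. By raw count it ranked 3 among all genes in each D3 library and 5, 13, 2 and 10 in the week 8 libraries in the order given. In NS the mean was 7630 ± 209 CPM at D3 and 2922 ± 1047 CPM at week 8 (SD, n = 2), which is 2.61-fold lower at week 8, with 2.04 to 3.56 between single libraries. In IUGR the week 8 mean of 19840 ± 24210 CPM (SD, n = 2) had an SD larger than itself and describes neither library.

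Eef1a2, the neuronal and muscle paralog, went the other way. At D3 it had 112 and 135 CPM in the NS libraries and 100.0 and 124 CPM in the IUGR libraries. At week 8 it had 302 and 1018 CPM in the NS libraries and 352 and 824 CPM in the IUGR libraries. Every week 8 library stood above every D3 library, and in each treatment the replicate 2 library was the higher one. The ratio of group means, week 8 over D3, was 5.34 in NS (2.235 to 9.08 between single libraries) and 5.245 in IUGR (2.83 to 8.24).

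The balance between the paralogs therefore differed between ages in all libraries but one. Per length, Eef1a2 made up 1.245% and 1.56% of the Eef1a1 and Eef1a2 signal in NS at D3 and 0.890% and 1.40% in IUGR at D3. At week 8 its share was 6.735% and 29.0% in NS, against 0.825% and 20.9% for the IUGR libraries. The share at week 8 was above that of any D3 library in 3 of 4 libraries, and in IUGR replicate 1, where Eef1a1 was high, it was below all of them. Eef1a1 exceeded Eef1a2 per length in all 8 libraries, from 2.45-fold in NS week 8 replicate 2 to 120-fold in IUGR week 8 replicate 1. In bulk tissue, fewer cells of a type and less RNA per cell cannot be told apart, so a share describes the tissue and not one cell. The summed level of both paralogs per kb was 4248 to 5492 CPM at D3, 2195 and 1717 in NS at week 8, and 20830 and 1924 in IUGR at week 8. The sum was thus lower at week 8 than at D3 in 3 of 4 libraries, although Eef1a2 was higher in all 4.

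**Figure D2:**
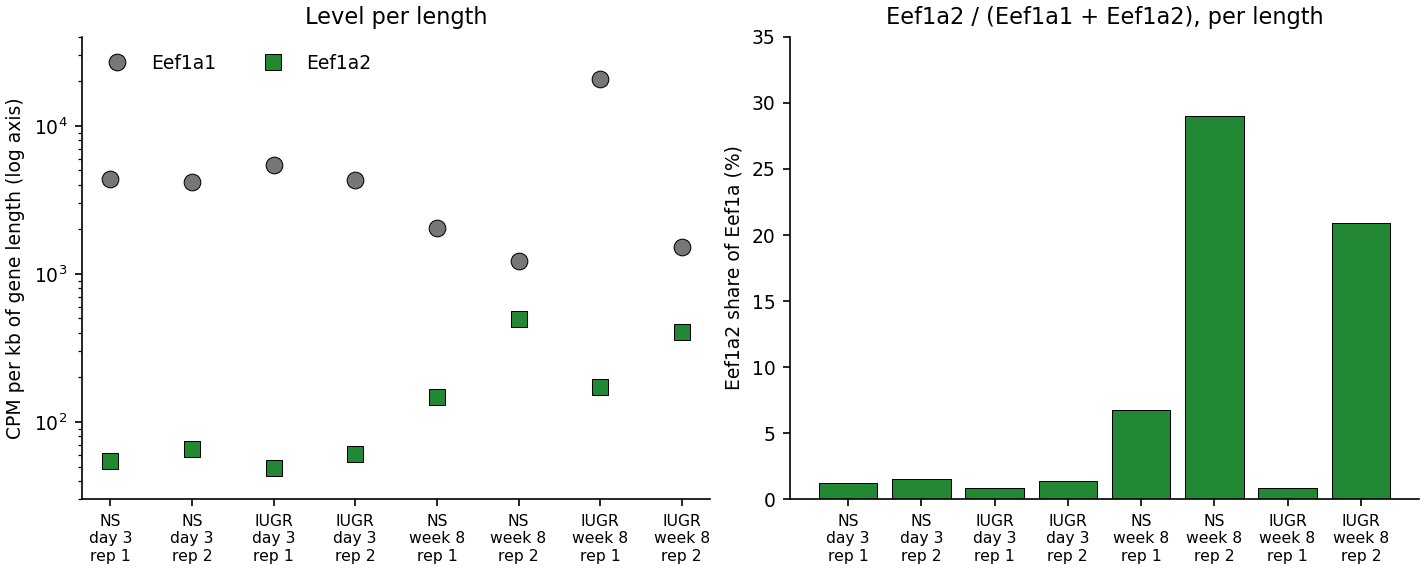
Left, level per length of Eef1a1 (circles) and Eef1a2 (squares) in CPM per kb of gene length (logarithmic axis) in each of 8 libraries. Right, Eef1a2 as a percentage of Eef1a1 plus Eef1a2 per length: 0.890% to 1.56% in the D3 libraries, 6.735% to 29.0% in 3 week 8 libraries and 0.825% in IUGR week 8 replicate 1.

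The subunits of the exchange factor were all lower at week 8, to different extents. Eef1b2, a catalytic subunit, had 502 and 469.9 CPM in the NS libraries and 499.7 and 468 CPM in the IUGR libraries at D3. At week 8 it had 231 and 105 CPM in the NS libraries and 233 and 135 CPM in the IUGR libraries. The ages did not overlap, and the ratio of group means, D3 over week 8, was 2.89 in NS and 2.63 in IUGR. Eef1g, the scaffold subunit, had 604 and 591 CPM in the NS libraries and 568 and 570.5 CPM in the IUGR libraries at D3. At week 8 it had 366.5 and 221 CPM in the NS libraries and 382 and 218 CPM in the IUGR libraries. Again the ages did not overlap, with ratios of 2.04 in NS and 1.898 in IUGR. Eef1d, the other catalytic subunit, had 107 and 105 CPM in the NS libraries and 109.5 and 107 CPM in the IUGR libraries at D3. At week 8 it had 98.9 and 71.2 CPM in the NS libraries and 93.25 and 59.0 CPM in the IUGR libraries. The ages did not overlap here either, but Eef1d stayed nearest to its D3 level, with ratios of 1.24 in NS and 1.42 in IUGR.

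The proportions of the subunit transcripts differed between ages. Per length, Eef1b2 over Eef1d was 6.80 to 7.34 in the D3 libraries and 2.29 to 3.89 in the week 8 libraries. Eef1g over Eef1b2 was 1.40 to 1.55 at D3 and 1.96 to 2.60 at week 8. Neither ratio overlapped between ages. How often ratios of other gene pairs separate the ages in this way was not computed. Both were computed within a library, so the library total does not enter them. They still differed between the week 8 replicates of NS. Eef1b2 over Eef1d was 3.64 and 2.29 there (3.89 and 3.55 in IUGR). Eef1g over Eef1b2 was 1.96 and 2.60 (2.03 and 2.00 in IUGR).

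Eef2, the translocase, had 1760 and 1798 CPM in the NS libraries and 1686 and 1760 CPM in the IUGR libraries at D3. At week 8 it had 982 and 1297 CPM in the NS libraries and 1030 and 1236 CPM in the IUGR libraries. All week 8 libraries stood below all D3 libraries, with ratios of group means, D3 over week 8, of 1.56 in NS and 1.52 in IUGR. Unlike Eef1b2, Eef1d and Eef1g, it was higher in the replicate 2 libraries of week 8 than in the replicate 1 libraries. Eef2 over Eef1g per length was 1.47 to 1.56 at D3, 1.35 and 1.36 in the week 8 replicate 1 libraries and 2.97 and 2.865 in the replicate 2 libraries.

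The change with age was tested for the 5 genes other than Eef1a1, separately in NS and in IUGR, with edgeR over all 15999 genes (quasi-likelihood F test, Benjamini-Hochberg adjusted p, called under 0.05). Eef1a2 rose in IUGR, by 2.498 ± 0.653 on the log2 scale (SE; edgeR adjusted p 0.0451), and was higher in 2 of 2 week 8 libraries than in both D3 libraries. In NS the estimate was 2.45 ± 0.652 and narrowly missed the threshold (edgeR adjusted p 0.0527). The difference between these changes was 0.05 on the log2 scale (edgeR adjusted p of the interaction 1.0). No other member was called in this fit. Eef1b2 had -1.51 ± 0.426 in NS (edgeR adjusted p 0.0617) and -1.29 ± 0.424 in IUGR (adjusted p 0.0827). Eef1g had -1.0 ± 0.354 (edgeR adjusted p 0.107) and -0.82 ± 0.353 (adjusted p 0.154). Eef2 had -0.61 ± 0.270 and -0.50 ± 0.269 (edgeR adjusted p 0.172 and 0.238), and Eef1d -0.29 ± 0.276 and -0.40 ± 0.276 (adjusted p 0.508 and 0.343).

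Thus 0 of 5 members were called in NS and 1 of 5 in IUGR, with 3 and 2 of them at an unadjusted p under 0.05. Of all 15999 genes, 5171 in NS and 5487 in IUGR had an unadjusted p under 0.05 by edgeR. Over all genes edgeR called 14.1% in NS (7.7% higher and 6.44% lower) and 16.8% in IUGR (9.34% higher and 7.48% lower), so the counts of members called stand near the background. DESeq2 called 3 of 5 in NS and 2 of 5 in IUGR, where it called 25.7% and 28.6% of all genes. With limma voom 0 and 1 members were called, beside 14.3% and 16.6% of all genes. In CPM, 5 of 6 members separated the 4 week 8 libraries from the 4 D3 libraries without overlap, 1 higher and 4 lower. Of all genes tested, 21.1% were higher and 26.0% lower without overlap. Eef1a1 overlapped through IUGR week 8 replicate 1 alone. Its fitted difference was -1.36 ± 1.02 in NS and 1.29 ± 1.02 in IUGR (log2, SE), and -1.57 ± 0.490 in IUGR without that library.

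**Figure D3:**
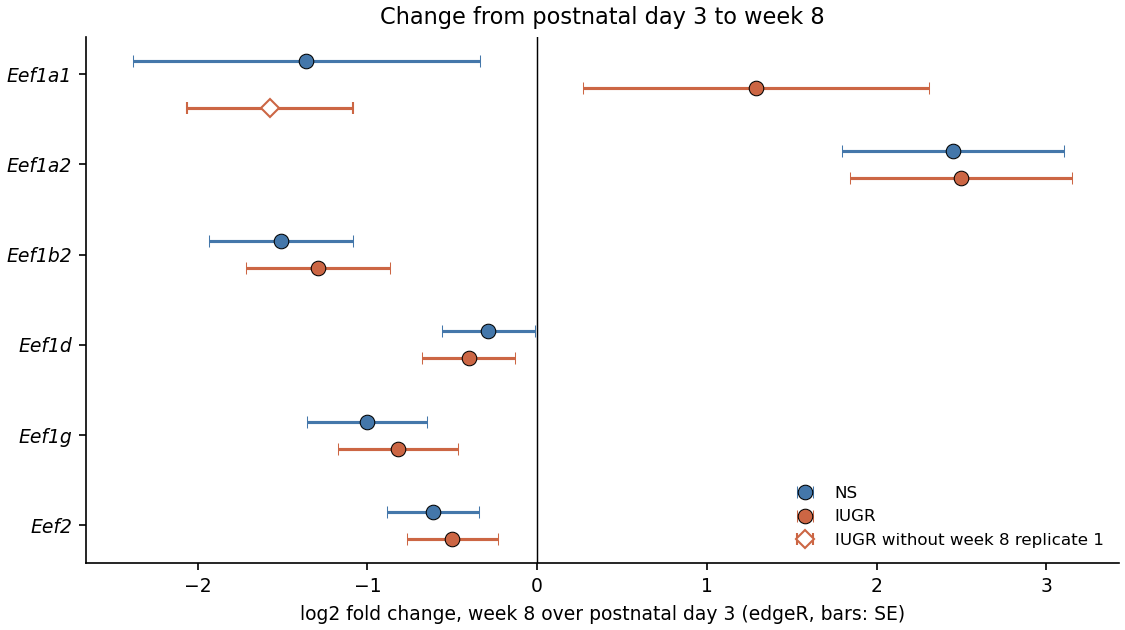
Fitted log2 fold change from postnatal day 3 to week 8 (x axis) for each member (y axis) in NS and in IUGR, with bars of 1 SE from edgeR, n = 2 libraries per group and age. Eef1a2 lies near 2.5 in both treatments and the other tested members lie below 0; Eef1a1 changes side in IUGR from 1.29 to -1.57 when week 8 replicate 1 is left out (open diamond).

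The calls depended on single libraries. The Eef1a2 call in IUGR was lost without NS D3 replicate 1 or 2 (edgeR adjusted p 0.0965 and 0.0969), without IUGR D3 replicate 1 or 2 (0.249 and 0.198) and without IUGR week 8 replicate 2 (0.170, with an estimate of 1.75). Over 18 alternatives Eef1a2 passed the threshold in 12 in IUGR and in 10 in NS. Eef1b2 passed in 6 in NS and in 7 in IUGR. Eef1g passed in 5 in NS and 3 in IUGR, and Eef2 in 3 and 2. Some of these fits leave 1 library in a group. The share called over all genes moved too, for example to 25.7% in NS and 28.6% in IUGR with DESeq2. These tallies alone therefore do not set the members apart from other genes. The replicate number as a block within each age takes up the week 8 split described below. With it edgeR also called Eef1g (adjusted p 0.0183 in NS and 0.0453 in IUGR) and Eef2 (0.0151 and 0.0251). The fit with this block called 5049 of 15999 genes in NS and 5550 in IUGR, against 2263 and 2691 in the main fit. Without both D3 replicate 2 libraries, whose Xist counts went against their label, the Eef1a2 estimates were 2.59 in NS and 2.65 in IUGR (edgeR adjusted p 0.472 and 0.405). In the same fit Eef1b2 had -1.56 and -1.36 (log2), Eef1g -1.02 and -0.83, Eef2 -0.60 and -0.48, and Eef1d -0.31 and -0.44. That fit called 0 genes of the whole table in either treatment, with 1791 in NS and 2108 in IUGR at an unadjusted p under 0.05. None of the 5 genes changed direction between ages in any of the 18 alternatives. The estimates nearest to 0 over these alternatives were -0.05 in NS and -0.10 in IUGR for Eef1d (log2). They were -0.68 and -0.46 for Eef1g, -0.43 and -0.37 for Eef2, -1.05 and -0.92 for Eef1b2, and 1.30 and 1.75 for Eef1a2.

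Markers of several cell types moved with age in the same libraries. The summed level of 12 mature neuron markers (Camk2a, Snap25, Syt1 and others, none at 0) was 1501 to 1819 CPM at D3 and 5068 to 13700 CPM at week 8, with 7 of 12 called higher in NS and 8 of 12 in IUGR. For 12 markers of immature neurons and progenitors (Dcx, Sox11, Stmn1 and others, none at 0) it was 4751 to 5771 CPM at D3 and 540 to 704 CPM at week 8, with 10 and 11 of 12 called lower. The 10 astrocyte markers summed to 1291 to 1687 CPM at D3 and 5918 to 6643 CPM at week 8. The 10 microglia markers summed to 135 to 185 CPM at D3 and 405 to 478 CPM at week 8, with 6 and 7 of 10 called higher. Because Eef1a2 is also the muscle form, 10 skeletal muscle genes were summed: 12.45 to 17.8 CPM at D3 and 38.01 to 73.0 CPM at week 8, of which 29.5 to 62.55 CPM were Pvalb, a gene that hippocampal interneurons also express. The part of cell composition in the members' changes was not tested.

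The 2 libraries of each week 8 group differed in all 6 genes, in the same direction in NS and IUGR. Eef1a2 was 3.37-fold higher in replicate 2 than in replicate 1 in NS and 2.34-fold in IUGR. Eef2 was 1.32-fold and 1.20-fold higher. Eef1b2 was 2.20-fold lower in NS and 1.73-fold lower in IUGR, Eef1g 1.66-fold and 1.75-fold lower, and Eef1d 1.39-fold and 1.58-fold lower. Eef1a1 was 1.68-fold lower in NS and 13.6-fold lower in IUGR. Such a split was common: 36.1% of all genes tested were higher and 37.6% lower in both replicate 2 libraries than in both replicate 1 libraries, without overlap. At D3 the corresponding shares were 18.8% and 14.3%.

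Mature neuron markers split the same way, at 5068 and 5565 CPM in the week 8 replicate 1 libraries and 13700 and 13110 CPM in the replicate 2 libraries. The hippocampal neuron markers were at 776.5 and 676 CPM in the former and 1442 and 1332 CPM in the latter. Rpph1, the RNA component of RNase P, had 1002307 and 959735 counts in the week 8 replicate 1 libraries and 0 and 2 counts in the replicate 2 libraries. The D3 libraries held 872768 to 1119905 counts of Rpph1, so the week 8 replicate 2 libraries stood apart from those of D3 as well. The age comparison includes this difference between libraries. The part of these differences in the members' values was not tested. Leaving Rpph1 and Eef1a1 out of the totals multiplied the CPM of other genes by 1.002 to 1.113, which kept each of the other 5 members separated by age. With only the replicate 1 libraries of week 8, set against the D3 libraries of the same treatment, Eef1a2 was 1.31 higher in NS on the log2 scale. In IUGR it was 1.77 higher. With only the replicate 2 libraries Eef1a2 was 3.07 higher in NS and 2.98 higher in IUGR. These fits take their spread from the D3 pairs only, since each week 8 group then holds 1 library. Week 8 replicates differed far more than D3 replicates, so no SE or p is given for these fits. Eef1d differed little from D3 in the week 8 replicate 1 libraries, at 98.9 CPM in NS and 93.25 CPM in IUGR, against 104.9 to 109.5 CPM at D3.

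The treatment comparison asked whether prenatal dexamethasone left a difference between IUGR and NS offspring at the same age. At D3 none of the 5 tested members was called, and edgeR called 0.0% of all genes (0 of 15999, with 96 at an unadjusted p under 0.05; DESeq2 and limma voom also called 0, with 129 and 90). The estimates, IUGR minus NS, were -0.14 ± 0.619 for Eef1a2, -0.01 ± 0.417 for Eef1b2, 0.03 ± 0.275 for Eef1d, -0.07 ± 0.351 for Eef1g and -0.05 ± 0.269 for Eef2 (log2, SE; edgeR adjusted p 1.0 for each). These SEs come from 1 estimate of the spread over all 4 groups, and week 8 replicates differed far more than D3 replicates. In a fit of the D3 libraries alone edgeR called 0 of 15435 genes, with 839 at an unadjusted p under 0.05. In CPM the groups did not overlap for Eef1d, which was higher in IUGR, and for Eef1g and Eef2, which were lower. Of all genes, 19.7% were higher and 16.6% lower without overlap, and the ratio of group means was 1.03 for Eef1d, 0.953 for Eef1g and 0.969 for Eef2. Eef1a1 was 1.25-fold higher in IUGR between the replicate 1 libraries and 1.02-fold between the replicate 2 libraries.

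At week 8 none of the 5 was called either, and edgeR called 0.0% of all genes (0 of 15999, with 161 at an unadjusted p under 0.05; DESeq2 called 1, with 210, and limma voom 0, with 133). The estimates were -0.10 ± 0.618 for Eef1a2, 0.21 ± 0.417 for Eef1b2, -0.08 ± 0.276 for Eef1d, 0.11 ± 0.351 for Eef1g and 0.07 ± 0.269 for Eef2 (log2, SE; edgeR adjusted p 1.0 for each). All 6 members overlapped between IUGR and NS in CPM, where 4.08% of all genes were higher and 9.01% lower without overlap. Between libraries of the same number, IUGR over NS was 1.163 and 0.810 for Eef1a2 (replicates 1 and 2), 1.01 and 1.28 for Eef1b2, 0.943 and 0.829 for Eef1d, 1.04 and 0.988 for Eef1g, and 1.05 and 0.953 for Eef2. For Eef1a2, Eef1g and Eef2 the direction thus differed between the numbers. The difference between ages of the treatment effect was -0.12 to 0.22 on the log2 scale over the 5 genes (edgeR adjusted p 1.0 for each; 0 of 15999 genes called, 82 at an unadjusted p under 0.05, and 0 by DESeq2 and limma voom, with 88 and 67). The SEs of 0.269 to 0.619 of these treatment estimates rest on the spread over all 4 groups and not on that of each age. A missed threshold does not show equal levels.

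Eef1a1 in IUGR week 8 replicate 1 stood apart from every other library. It held 546550 Eef1a1 counts, against 47720 in NS replicate 1, 41445 in NS replicate 2 and 39691 in IUGR replicate 2. Between the replicate 1 libraries of week 8, the ratio of IUGR to NS was 10.1, the highest of 10520 genes with a mean of at least 10 CPM over the 8 libraries. It was the only one of these genes at least 4-fold higher in IUGR in that pair, and 15 genes were at least 4-fold lower. The set was proposed for the Eef1a1 share of counts, so this place in the ranking is a description and no test. Xist followed in that pair with a ratio of 3.67, from 12 counts in NS and 50 in IUGR. After it came Rpl36al, which encodes a ribosomal protein of the large subunit, with a ratio of 3.22. The same libraries differed in markers of neighbouring tissues: 10 choroid plexus markers summed to 6785 CPM in NS and 77.4 CPM in IUGR (none at 0), and 10 markers of meninges and fibroblasts to 2543 and 1203 CPM (none at 0). Of the choroid plexus sums, Ttr alone made up 6464 and 44.2 CPM. Of the meninges and fibroblast sums, Ptgds alone made up 1852 and 901 CPM. In the week 8 replicate 2 libraries the choroid plexus markers summed to 88.0 CPM in NS and 70.7 CPM in IUGR. Those of meninges and fibroblasts summed to 559 and 723 CPM there. At D3 the choroid plexus sums also differed, at 95.95 CPM in NS and 3244 CPM in IUGR for replicate 1 and 6314 and 460 CPM for replicate 2. The part of these marker differences in the Eef1a1 ratio was not tested. In the other pairs of libraries of the same number, Eef1a1 had ratios of 1.25 (D3 replicate 1), 1.02 (D3 replicate 2) and 1.25 (week 8 replicate 2) and ranked 1019, 5341 and 1653. The other 5 members did not share the difference: in the same pair they ranked between 1335 (Eef1a2) and 6409 (Eef1d), with ratios of 0.943 to 1.163. The fitted treatment difference of Eef1a1 at week 8 was 2.84 ± 1.08 with this library and -0.03 ± 0.454 without it (log2, SE). The scatter of the week 8 replicate 1 libraries shows this gene apart from the diagonal on which the other members lie.

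**Figure D4:**
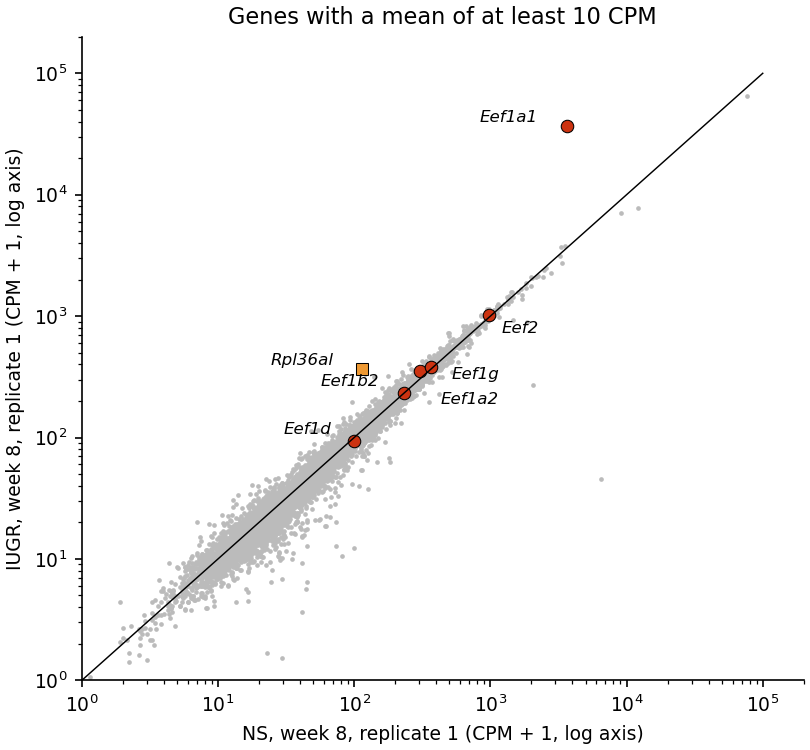
Level of each gene with a mean of at least 10 CPM in NS week 8 replicate 1 (x axis) and IUGR week 8 replicate 1 (y axis), both as CPM + 1 on logarithmic axes, with the line of equal levels. Red circles mark the elongation factor genes and the orange square Rpl36al: Eef1a1 lies 10.1-fold above the NS level and Rpl36al 3.22-fold, while Eef1a2, Eef1b2, Eef1d, Eef1g and Eef2 lie near the line.

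Other genes of translation were described from lists chosen for their known roles, as changes from D3 to week 8 beside the median of all genes (0.04 in NS and 0.02 in IUGR, log2). The calls below rest on all 8 libraries: without both D3 replicate 2 libraries edgeR called 0 genes with age, as given above. They are to be read beside the share of all genes called by edgeR. In NS this was 7.7% higher and 6.44% lower, and in IUGR 9.34% higher and 7.48% lower. The 5 tested elongation factors had medians of -0.61 in NS and -0.50 in IUGR. Regulators and relatives of the elongation factors had 22 of 26 genes tested, with medians of -0.27 and -0.31. In NS 1 of them was called higher and 1 lower, and in IUGR 0 higher and 2 lower. Hbs1l, an eEF1A-like GTPase that rescues stalled ribosomes, fell in both, by 0.89 ± 0.18 in NS and 0.90 ± 0.18 in IUGR on the log2 scale (edgeR adjusted p 0.0236 and 0.0200). Its levels were 89.55 to 104 CPM at D3 and 47.3 to 52.9 CPM at week 8, without overlap. Eif5a2, a paralog of the elongation factor eIF5A, rose in NS by 1.08 ± 0.27 (edgeR adjusted p 0.0454) and had 0.85 ± 0.27 in IUGR (adjusted p 0.0760). Eef2k, the kinase that inhibits eEF2, had -0.72 in NS and -0.70 in IUGR and was not called. Eef1e1, which encodes a component of the aminoacyl-tRNA synthetase complex, was the other gene called lower in IUGR and was named after its values were seen, with -1.89 (-1.86 in NS, not called).

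Initiation factors had 42 of 44 genes tested, with medians of -0.60 in NS and -0.51 in IUGR. Of these, 7 were called lower in NS and 8 in IUGR, and 0 higher. Eif4a1, the RNA helicase of the cap-binding complex, fell by 1.47 ± 0.29 in NS (edgeR adjusted p 0.0229), from 967 to 1242 CPM at D3 to 289.5 to 427 CPM at week 8. Eif2s2, a subunit of the factor that brings the initiator tRNA, fell by 1.45 ± 0.32 (edgeR adjusted p 0.0308), and Eif3l, an eIF3 subunit, by 1.02 ± 0.18 (adjusted p 0.0168). All 3 were also called lower in IUGR (edgeR adjusted p 0.0193, 0.0410 and 0.0142). Cytosolic aminoacyl-tRNA synthetases and their cofactors, which supply the substrate of eEF1A, had 22 genes tested, medians of -0.51 and -0.47, and 3 called lower in each treatment. Gars, the glycyl-tRNA synthetase, fell by 0.87 ± 0.19 in NS (edgeR adjusted p 0.0298), and Kars, the lysyl-tRNA synthetase, by 0.86 ± 0.18 (adjusted p 0.0273). Aimp2, a scaffold of the synthetase complex, fell by 0.82 ± 0.21 in NS (edgeR adjusted p 0.0494) and had -0.57 in IUGR (adjusted p 0.115).

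Termination and ribosome recycling factors (7 tested) and mitochondrial elongation factors (5 tested) had no gene called between ages by edgeR in either treatment. The medians of these lists were -0.26 and -0.10 in NS, against -0.23 and -0.32 for the IUGR groups. The genes with the smallest p in NS were Abce1, a ribosome recycling ATPase, at -0.85 ± 0.26 (edgeR adjusted p 0.0768), Gspt2, a paralog of release factor eRF3, at 0.85 ± 0.29 (0.0965), and the mitochondrial factors Gfm1 at 0.68 ± 0.19 (0.0593) and Gfm2 at 0.65 ± 0.25 (0.129).

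Terminal oligopyrimidine mRNAs lay further below the median of all genes. The 76 cytosolic ribosomal protein genes tested (of 77) had medians of -1.17 in NS and -1.08 in IUGR. All 76 estimates were below 0 in NS and 75 in IUGR, with 10 and 6 called lower by edgeR and 0 higher. Over all genes edgeR called 6.44% lower in NS and 7.48% in IUGR, and the count of 6 in IUGR stands near that share. The 16 other mRNAs of this class, some of them initiation factors counted above, had medians of -0.84 and -0.66, with 3 and 4 called lower and 0 higher. Gnb2l1, which encodes the ribosome-bound scaffold RACK1, fell by 1.97 ± 0.42 in NS (edgeR adjusted p 0.0293), from 901 to 1010 CPM at D3 to 151 to 334 CPM at week 8. Vim, the intermediate filament of glia and progenitors, fell by 1.55 ± 0.34 in NS (edgeR adjusted p 0.0323), and Btf3, a nascent chain factor subunit, by 1.25 ± 0.26 (adjusted p 0.0275). All 3 were also called lower in IUGR (edgeR adjusted p 0.0409, 0.0353 and 0.0316). In these lists edgeR called 0 genes between IUGR and NS at either age.

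**Figure D5:**
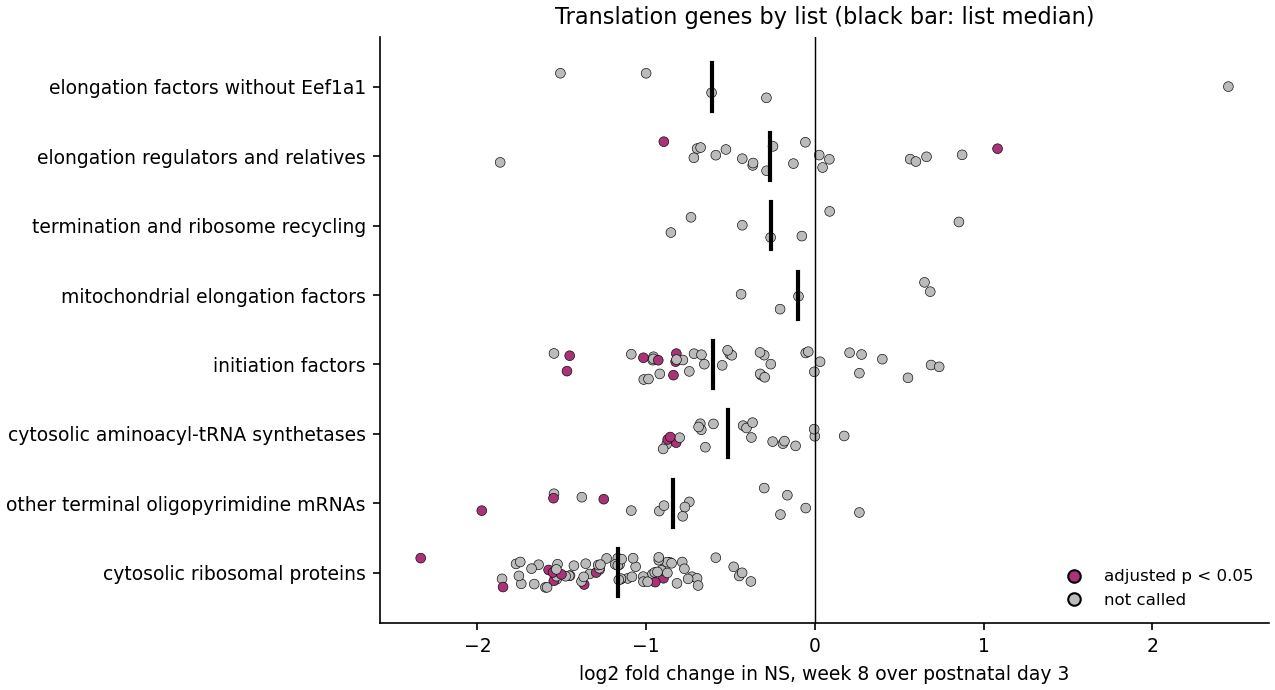
Log2 fold change from postnatal day 3 to week 8 in NS (x axis) of each tested gene, by list (y axis); the vertical black bar is the list's median and coloured points have an edgeR adjusted p under 0.05. Medians run from -0.10 for mitochondrial elongation factors to -1.17 for cytosolic ribosomal proteins, and Eef1a2, at 2.45, is the point farthest to the right.

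The genes whose pattern over the 8 libraries was most like that of each Eef1a paralog were ranked by Pearson's r of log2(CPM + 1). The ranking took in 10170 genes with a mean of at least 10 CPM, after the members, unnamed gene models and small RNAs were left out. The libraries share age and, at week 8, the split by replicate number, so these values are descriptions. For Eef1a2 the first 5 were Ptprn (0.999), a dense-core vesicle protein, Ncs1 (0.998), a neuronal calcium sensor, Tnk2 (0.998), a non-receptor tyrosine kinase, Rasl10b (0.998) and Wbp2 (0.998). Ptprn had 26.2 to 36.0 CPM at D3, 119 and 160.5 CPM in the week 8 replicate 1 libraries and 662 and 476 CPM in the replicate 2 libraries, the same order of libraries by age and number as Eef1a2. For Eef1a1 they were Rpl36al (0.945), Dpp10 (0.906), a potassium channel subunit, Ndel1 (0.896), a dynein regulator, Atp2b4 (0.883), a plasma membrane calcium pump, and Ice2 (0.874). Rpl36al had 152.5 to 189.6 CPM at D3, 114 and 42.1 CPM in NS at week 8, 366 CPM in IUGR week 8 replicate 1 and 55.1 CPM in IUGR week 8 replicate 2. The Eef1a1 ranking rested on IUGR week 8 replicate 1: over the 7 libraries without it, added after the data were seen, these 5 genes ranked between 981 (Rpl36al, 0.958) and 3502 (Atp2b4, 0.711). The 5 genes named for Eef1a2 ranked between 3 and 11 without that library.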

How the data were processed

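RNA was measured in 8 hippocampal libraries in 4 groups of 2, taken from the treatment and age labels, with the replicate number from the sample titles. Per the labels' protocols, ribosomal RNA was depleted from total RNA, cDNA was made with random primers, and paired ends were sequenced. Per the submitters' processing notes the tools were HISAT2 2.1.0, featureCounts 1.6.1, cutadapt 1.16, SAMtools 1.9 and DESeq2 1.26.0, with the mm10 genome. For annotation, strandedness and multi-mapping reads, settings were not given in the sources used here. The authors deposited raw counts per gene symbol for 24421 genes, 1 table per age, and every test used these counts. The gene length in bases (unit: other) was deposited by the authors in the same tables and served only to compare levels between genes. Their normalized tables were not used.

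edgeR 4.0.16 (R 4.3.3) was used to fit 1 mean per group to the 8 libraries together (TMM factors 0.95 to 1.031, default expression filter, 15999 genes left, common biological coefficient of variation 0.374). Comparisons used the quasi-likelihood F test, two-sided, with Benjamini-Hochberg adjustment over all genes and a threshold of 0.05, and a standard error (SE) is the size of the log2 fold change over the square root of F. Printed CPM are raw counts over the library total, and 3 counts, the limit that a count of 0 allows, were 0.158 to 0.2302 CPM, covering counting error only. The scripts were tested on simulated data.

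The members and gene lists were chosen with earlier results of these data known. By rule, the text names all members, up to 3 called genes per list with the largest change with age in NS (or the 2 with the smallest p), and the 5 genes most like Eef1a1 and Eef1a2 among those with a mean of at least 10 CPM. Gene models came from GENCODE M21. Alternatives were RLE and upper-quartile scaling, no count filter, DESeq2 1.42.0, limma 3.58.1 voom, each age alone, the replicate number as a block, and each library left out. Leaving out both D3 replicate 2 libraries, or both week 8 libraries of a number, was added after seeing the data. 1 marker list is not reported here.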

Additional observations from a re-analysis of the deposited data

How the results depend on the processing

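Treatment comparisons kept 0 genes called in most alternatives. At week 8 DESeq2 called 1 gene, and without both week 8 replicate 1 libraries edgeR called 2, as it did for the difference between ages. Counts called with age moved more: in NS (2263 genes) DESeq2 called 4110, the replicate block within age 5049, a fit without both D3 replicate 2 libraries 0 (1791 at an unadjusted p under 0.05), without both week 8 replicate 1 libraries 9520 and without both week 8 replicate 2 libraries 6201. In IUGR (2691 genes) these were 4581, 5550, 0 (2108 at an unadjusted p under 0.05), 9221 and 6778. Leaving out single libraries gave 51 to 3801 genes in NS, lowest without an NS D3 library, and 92 to 4069 in IUGR, lowest without an IUGR D3 library; a lone library is then assumed to vary like the other groups. The share of Eef1a1 among Eef1a per length ran, by library left out, from 98.44% to 98.75% (NS D3), 98.6% to 99.11% (IUGR D3), 71.02% to 93.27% (NS week 8) and 79.06% to 99.17% (IUGR week 8). Where both week 8 libraries of a number are left out, the spread comes from the D3 pairs alone, whose replicates differed less. The counts of those fits are therefore not comparable with the main fit. A cause was not tested beyond these constructions.

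Replicate numbers did not pair the samples by the labels. The replicate differences of NS and IUGR correlated at 0.863 over 14486 genes at week 8 and at -0.081 at D3. A replicate block over both ages gave 3009 genes in NS and 3500 in IUGR, and with it Eef1a2 had an edgeR adjusted p of 0.0221 and 0.0169 and Eef1b2 of 0.0238 and 0.0325.

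Small treatment estimates of the members changed sign. Over single libraries left out, they ran at D3 from -0.03 to 0.36 for Eef1a1, -0.09 to 0.05 for Eef1b2 and -0.02 to 0.06 for Eef1d. At week 8 they ran from -0.03 to 3.74 for Eef1a1, -0.84 to 1.05 for Eef1a2, -0.25 to 0.87 for Eef1b2, -0.46 to 0.21 for Eef1d, -0.36 to 0.50 for Eef1g and -0.14 to 0.30 for Eef2. For the difference between ages the ranges were -0.20 to 3.55, -0.70 to 1.20, -0.23 to 0.90, -0.47 to 0.17, -0.27 to 0.60 and -0.07 to 0.35 in the same order. Eef1a1 with age in IUGR ran from -1.57 to 2.19 and was -1.57 without both week 8 replicate 1 libraries. Eef1a2 at week 8 was 0.05 with limma voom, 0.03 with the block within age, 0.02 with that age alone and a block, and 0.30 without both week 8 replicate 2 libraries. Without those libraries Eef1d at week 8 was 0.00. Without both week 8 replicate 1 libraries Eef2 at week 8 was -0.02 and the Eef1a2 difference between ages -0.09. Eef1b2 at D3 was 0.00 without both D3 replicate 2 libraries.

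With 2 libraries per group, unknown sources of the libraries, 2 D3 libraries against their sex label and a week 8 split shared by most genes, the size of the age changes is known only within the ranges above. Depth did not limit the members, whose lowest count was well above the limit that a count of 0 allows.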
